A study of Homo sapiens with 36 samples.

Results

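The 10 genes described here sit at the control points of mTORC1, the kinase complex that couples cell growth to nutrients and stress: DDIT4, SESN1, SESN2, SESN3, TSC1, TSC2, RHEB, MTOR, EIF4EBP1 and DEPTOR. They were taken by gene symbol from an mRNA count table of 60591 genes, and 10 of 10 had a row and passed the filter on low counts in both cell lines. Expression was measured in Caco-2 and HT-29, established human lines from colorectal adenocarcinoma, with 3 replicates in each of 6 groups and 18 mRNA libraries of 36 samples in all. Caco-2 cells had first been held for 21 days under conditions that differentiate them. Each line was cultured for 24 h with CoCl2 at 300 µM, with an oxyquinoline derivative (OD) at 5 µM given in DMSO, or with 0.5 µl of DMSO per ml and no agent (control, labelled as untreated). Both agents are used to stabilise hypoxia-inducible factor (HIF) at normal oxygen, so the treatments are chemical imitations of hypoxia and not hypoxia itself. The study calls the replicates biological. The CoCl2 stock was made in water according to the labels, whereas the study's methods for Caco-2 give DMSO in that medium too, so a difference in solvent between CoCl2 and control is not settled. Medium and culture state also differed between the lines, and cannot be told apart from the line itself.

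mTORC1 drives protein synthesis when amino acids and growth factors are present and is held back when the cell is short of oxygen, energy or amino acids. DDIT4 (also called REDD1) is induced by hypoxia and other stresses and restrains mTORC1 through the TSC complex. The sestrins inhibit mTORC1 through GATOR2 on the amino acid branch. TSC1 and TSC2 form the complex that switches off the small GTPase RHEB, which in its active form turns on MTOR. EIF4EBP1 is the substrate through which mTORC1 controls cap-dependent translation, and DEPTOR is an inhibitory subunit of both mTOR complexes. Much of this control acts on proteins by binding and phosphorylation. The libraries measured mRNA only.

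The core of the HIF binding motif is ACGTG, or GCGTG in the less strict form. Promoters are shown for the 3 genes with an ACGTG match in the 250 bases before their start, out of the 8 members with a RefSeq promoter in the reference used (GRCh38.p14). Letters run 5′ to 3′ on the strand of the gene, and capitals mark motif matches on either strand.
DDIT4: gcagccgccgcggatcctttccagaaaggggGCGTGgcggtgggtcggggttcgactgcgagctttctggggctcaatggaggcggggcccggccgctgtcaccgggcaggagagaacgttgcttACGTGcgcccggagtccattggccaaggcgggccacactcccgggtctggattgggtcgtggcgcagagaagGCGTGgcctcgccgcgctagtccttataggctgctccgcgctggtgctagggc
RHEB: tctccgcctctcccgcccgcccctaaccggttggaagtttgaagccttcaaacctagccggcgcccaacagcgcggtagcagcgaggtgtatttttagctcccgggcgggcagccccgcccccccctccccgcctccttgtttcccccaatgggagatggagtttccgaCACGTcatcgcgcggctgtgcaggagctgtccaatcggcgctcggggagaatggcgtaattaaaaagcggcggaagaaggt
TSC2: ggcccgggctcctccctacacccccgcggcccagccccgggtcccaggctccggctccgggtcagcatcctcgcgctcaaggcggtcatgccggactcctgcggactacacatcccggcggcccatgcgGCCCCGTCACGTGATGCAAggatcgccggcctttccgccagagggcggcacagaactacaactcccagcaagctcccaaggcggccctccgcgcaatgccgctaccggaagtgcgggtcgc
These windows are chr10:72273674-72273923 (plus strand) for DDIT4, chr7:151519896-151520145 (minus strand) for RHEB and chr16:2047735-2047984 (plus strand) for TSC2. DDIT4 held ACGTG 125 bases before its start and GCGTG at 219 and 53 bases before it. RHEB held ACGTG once, on the opposite strand, 81 bases before its start. The TSC2 match at 114 bases was the palindrome CACGTG, read on both strands, and overlapped TGATGNAA (a form of the ATF4 element) and TGACNNNGC (the antioxidant response element of NRF2), both searched on both strands. MTOR held GCGTG 148 bases before its start, and SESN1, SESN2, SESN3 and TSC1 held none of the 4 motifs in this window. ACGTG occurred in 18.5% of 35116 promoter windows of this length, GCGTG in 32.2%, TGACNNNGC in 10.9% and TGATGNAA in 3.14%. A match describes letters and is not evidence of binding.

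Total counts ran from 12925719 to 22332639 per library, and all 10 genes were counted well above the floor of 3 counts, with 74 counts for DEPTOR in 1 Caco-2 CoCl2 library as the lowest. The epithelial markers were expressed in both lines, 6 of 6 at a median over 1 CPM (counts scaled by effective library size), whereas the enterocyte markers summed to 317.9 to 609.9 CPM in Caco-2 and 16.04 to 35.6 CPM in HT-29. In Caco-2 the enterocyte markers summed to 516.8 to 609.9 CPM in control, 317.9 to 366.4 CPM under CoCl2 and 552.7 to 580.2 CPM under OD. In HT-29 they were lower under both agents, at 33.0 to 35.6 CPM in control, 16.04 to 18.4 CPM under CoCl2 and 18.7 to 21.3 CPM under OD. Markers of blood, vessel and stromal cells summed to 32.8 to 39.7 CPM in Caco-2 control, 18.8 to 22.2 CPM under CoCl2 and 22.1 to 27.7 CPM under OD, and in HT-29 to 3.64 to 5.10, 2.54 to 3.66 and 6.62 to 7.72 CPM in that order, with PTPRC at 0 to 2 counts and COL1A1 (14.7 to 26.5 CPM) the largest part in Caco-2; 2 of 6 passed 1 CPM at the median in each line. The part of these markers in the results was not tested. The 20 most abundant genes took 14.3% to 14.7% of the counts in HT-29 CoCl2 and 8.73% to 11.6% elsewhere. Scaling weighs on small changes: with library sizes alone in place of TMM (trimmed mean of M values) factors, the median over all tested genes shifted on the log2 scale by -0.63 (CoCl2) and -0.14 (OD) in HT-29, and by -0.32 (CoCl2) and -0.15 (OD) in Caco-2. Unless stated otherwise, tests are edgeR quasi-likelihood tests, and FDR is the Benjamini-Hochberg adjusted p over all tested genes of the fit. In bulk RNA, fewer cells of a type and less RNA per cell cannot be told apart.

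**Figure D1:**
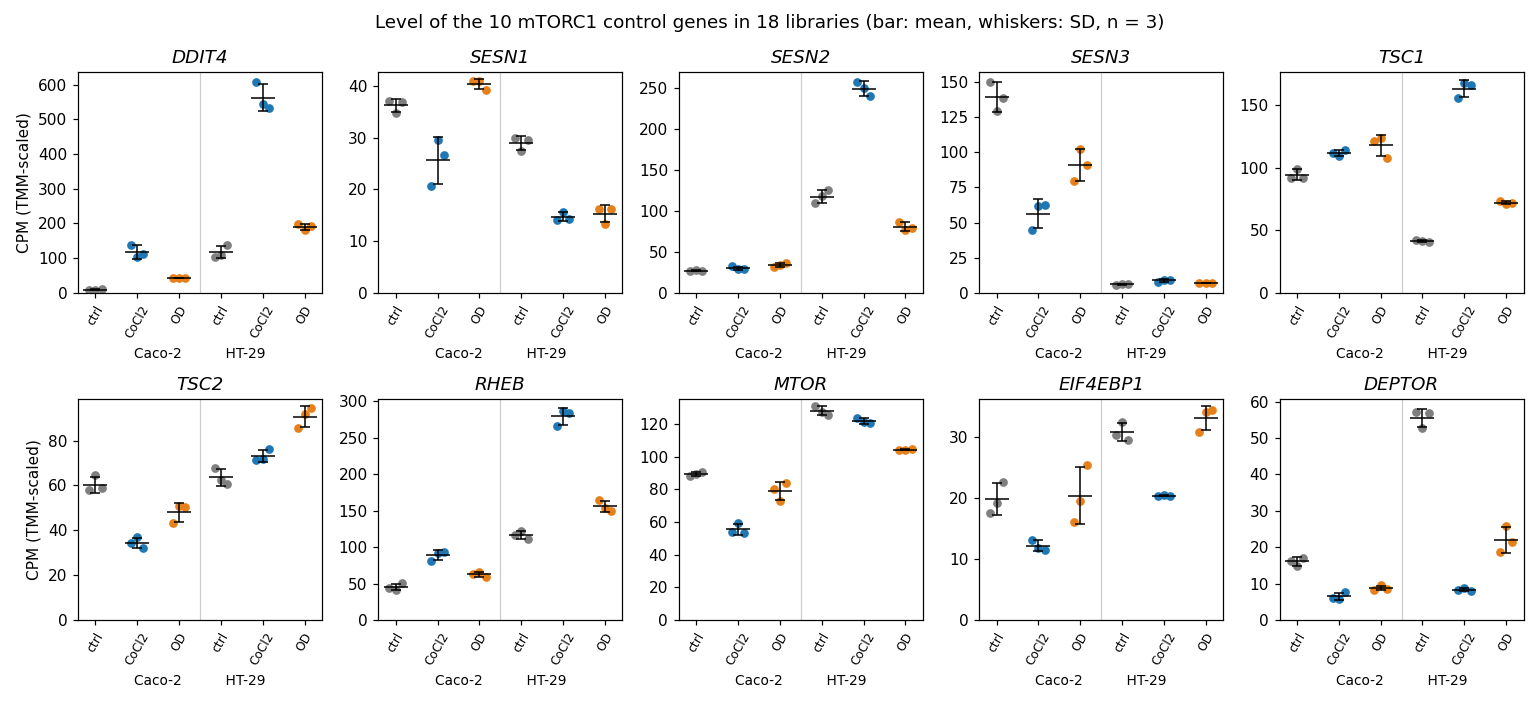
Level of each of the 10 genes in CPM (TMM-scaled within each line, linear axis from 0) in 3 control, 3 CoCl2 and 3 OD libraries of Caco-2 (left of each panel) and HT-29 (right). Points are libraries, the long bar is the mean and the whiskers are the SD; DDIT4 runs from 7.33 CPM in a Caco-2 control library to 607 CPM in an HT-29 CoCl2 library.

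DDIT4 rose under both agents in both lines, and it was the member with the largest rise in Caco-2. DDIT4 lies at chr10:72273919-72276036 (plus strand, GRCh38, GENCODE v44) and overlaps no other annotated gene. In Caco-2 it stood at 7.33, 7.51 and 9.62 CPM in the control libraries, at 139, 102 and 111 CPM under CoCl2 and at 41.4, 41.1 and 42.4 CPM under OD. The 3 groups did not overlap, and the OD libraries lay between control and CoCl2. The log2 fold change against control was 3.85 (SE 0.12, FDR 1.88e-18) for CoCl2, a 14.4-fold rise, and 2.36 (SE 0.12, FDR 1.11e-13) for OD, a 5.12-fold rise. In HT-29 the control libraries already held 104, 110 and 137 CPM, against 607, 545 and 534 CPM under CoCl2 and 198, 180 and 193 CPM under OD. Again no group overlapped another, with a rise of 4.79-fold for CoCl2 (log2 fold change 2.26, SE 0.07, FDR 1.25e-20) and of 1.62-fold for OD (0.70, SE 0.07, FDR 1.97e-09). CoCl2 gave a higher DDIT4 level than OD in both lines, by 1.49 on the log2 scale in Caco-2 (FDR 2.16e-11) and 1.56 in HT-29 (FDR 4.65e-17), at doses that were not matched.

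Put on one scale across all 18 libraries, DDIT4 was lowest in Caco-2 control (8.02 ± 1.27 CPM, SD, n = 3), followed by Caco-2 OD (41.0 ± 0.68), Caco-2 CoCl2 (115 ± 19.0), HT-29 control (122 ± 19.5), HT-29 OD (197 ± 9.84) and HT-29 CoCl2 (545 ± 38.1). Treated Caco-2 cells and untreated HT-29 cells were not separated in this order: the Caco-2 CoCl2 libraries covered 100 to 137 CPM and the HT-29 control libraries 108 to 144 CPM. All other neighbours in the order had ranges that did not overlap.

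The sestrins did not move as a family. In HT-29 SESN2 rose under CoCl2 and fell under OD, SESN1 fell under both, and SESN3 was scarce in every library. In Caco-2, SESN3 was the sestrin that fell under both agents. SESN2 (chr1:28259518-28282491, plus strand) encodes a leucine-binding, stress-inducible inhibitor of mTORC1. It was at 109, 118 and 125 CPM in HT-29 control, 257.3, 248.99 and 239.4 CPM under CoCl2 and 86.0, 76.1 and 79.3 CPM under OD. The groups were fully separated, with control in the middle. SESN2 thus rose 2.12-fold under CoCl2 (log2 fold change 1.08, SE 0.05, FDR 3.88e-16) and fell by 0.54 on the log2 scale under OD (SE 0.06, FDR 3.09e-09), and CoCl2 exceeded OD by 1.63 (FDR 1.91e-19). With library sizes alone the rise under CoCl2 was 0.45 (FDR 9.00e-09), no longer past a log2 fold change of 1. Caco-2 held less SESN2, with 25.8 to 27.7 CPM in control, 28.5 to 32.2 CPM under CoCl2 and 31.8 to 36.7 CPM under OD. The rise under OD was 1.27-fold (log2 fold change 0.34, SE 0.10, FDR 0.00424) and did not pass with library sizes alone (0.19, FDR 0.107). The CoCl2 value was 0.16 (SE 0.10, FDR 0.154, 95% interval -0.03 to 0.35) and changed sign to -0.16 with library sizes alone.

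SESN3 (chr11:95165513-95232541, minus strand) stood at 150.2, 129 and 139 CPM in Caco-2 control, 44.4, 61.9 and 62.6 CPM under CoCl2, and 79.4, 102 and 90.7 CPM under OD. Each treated library was below each control library, and CoCl2 was below OD. The log2 fold change was -1.30 (SE 0.11, FDR 1.75e-10) for CoCl2 and -0.62 (SE 0.10, FDR 2.84e-05) for OD. In HT-29 the gene was at 5.62 to 9.20 CPM in all 9 libraries, and its rise under CoCl2 (log2 fold change 0.53, SE 0.12, FDR 1.69e-04) turned to -0.10 with library sizes alone. SESN3 under OD in HT-29 had a log2 fold change of 0.16 (FDR 0.223, 95% interval -0.07 to 0.39).

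SESN1 (chr6:108984309-109094846, minus strand), a p53-regulated sestrin, fell by about 1 log2 unit under both agents in HT-29. Its control libraries held 29.9, 27.5 and 29.6 CPM, against 14.1, 15.7 and 14.3 CPM under CoCl2 and 16.2, 13.4 and 16.2 CPM under OD. Both treated groups lay well below control and overlapped each other. The log2 fold changes were -0.98 (SE 0.08, FDR 2.99e-11) and -0.92 (SE 0.08, FDR 6.42e-11), and the difference between the agents was -0.05 (95% interval -0.23 to 0.12, FDR 0.589), which passed with library sizes alone (-0.55, FDR 3.61e-06). In Caco-2, SESN1 fell under CoCl2 from 34.7 to 37.1 CPM in control to 20.7, 29.5 and 26.7 CPM (log2 fold change -0.50, SE 0.11, FDR 2.53e-04), and OD libraries held 39.3 to 41.0 CPM (0.16, SE 0.10, FDR 0.210).

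Compared in RPKM from the deposited log2 values, the 3 sestrins together made up 28.6 ± 1.13 RPKM (SD, n = 3) in Caco-2 control, 18.9 ± 1.24 under CoCl2 and 26.2 ± 1.43 under OD. In HT-29 the sum was 41.3 ± 2.32 RPKM in control, 73.0 ± 2.34 under CoCl2 and 27.2 ± 1.71 under OD. SESN3 supplied 47.1% ± 1.68 of the Caco-2 control sum, 27.9% ± 3.48 under CoCl2 and 32.6% ± 2.52 under OD, while the share of SESN2 was 27.7% ± 1.69, 45.9% ± 6.19 and 37.4% ± 2.02. In HT-29, SESN2 made up 84.4% ± 1.12 of the control sum, 95.1% ± 0.37 under CoCl2 and 86.5% ± 0.71 under OD. The RPKM table was scaled within each line, so the sums of the 2 lines carry separate scales. The sums and shares also depend on the length per gene behind the RPKM, which was not checked against single transcripts.

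**Figure D2:**
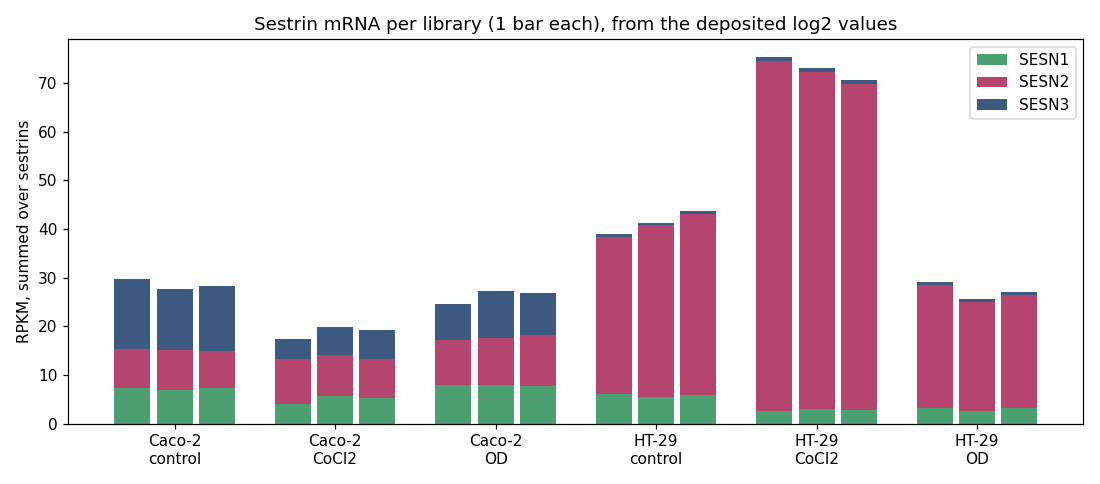
Sestrin mRNA in RPKM, stacked by gene (SESN1 green, SESN2 red, SESN3 blue), with 1 bar per library and 3 bars per group on a linear axis from 0. The HT-29 bars are nearly all SESN2, the tallest being 75.3 RPKM under CoCl2, whereas SESN3 shrinks from the largest part of the Caco-2 control bars to 24.0% to 30.5% of the CoCl2 bars.

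The subunits of the TSC complex behaved differently from each other. TSC1 (chr9:132891348-132946874, minus strand), the stabilising subunit, rose 3.95-fold under CoCl2 in HT-29. It was at 42.5, 41.3 and 40.4 CPM in control, 155, 168 and 166 CPM under CoCl2 and 73.4, 70.9 and 71.5 CPM under OD. The groups did not overlap and the spread within each was small. The log2 fold change was 1.98 (SE 0.05, FDR 1.62e-22) for CoCl2 and 0.80 (SE 0.05, FDR 3.46e-13) for OD. In Caco-2, TSC1 libraries held 91.4 to 99.1 CPM in control, 109 to 114 CPM under CoCl2 and 108 to 124 CPM under OD. The rises were 1.19-fold for CoCl2 (log2 fold change 0.25, SE 0.08, FDR 0.00706), which turned to -0.08 with library sizes alone and had an FDR of 0.0514 in limma-trend, and 1.25-fold for OD (0.32, SE 0.08, FDR 0.00108), which had an FDR of 0.0575 with library sizes alone.

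TSC2 (chr16:2047967-2089491, plus strand), the catalytic subunit that acts on RHEB, fell in Caco-2 under both agents. Control libraries held 57.8, 64.5 and 58.6 CPM, CoCl2 libraries 34.2, 36.8 and 32.1 CPM, and OD libraries 43.0, 50.6 and 50.3 CPM. The 3 groups were separated, with log2 fold changes of -0.81 (SE 0.09, FDR 3.21e-08) for CoCl2 and -0.33 (SE 0.09, FDR 0.00342) for OD. In HT-29 TSC2 rose from 67.8, 62.3 and 60.8 CPM in control to 85.6, 91.8 and 94.7 CPM under OD (log2 fold change 0.51, SE 0.05, FDR 3.04e-09). CoCl2 libraries of HT-29 lay at 71.5, 71.8 and 76.3 CPM. That rise (log2 fold change 0.20, SE 0.06, FDR 0.00155) was reversed with library sizes alone (-0.43, FDR 1.17e-07) and did not pass in limma-trend (FDR 0.169) or without the filter on low counts (FDR 0.0565). TSC2 shares 784 of its 20527 exonic bases (3.82%) with PKD1 on the opposite strand, and whether the counting used strand is not given in the sources used here. PKD1 (495 to 2159 counts) moved with TSC2 under OD in HT-29, with a log2 fold change of 0.39 (FDR 3.23e-07), and opposite to it under CoCl2 in Caco-2, at 0.33 (FDR 0.0147). Its part in the TSC2 values was not tested. Of the other genes that overlap exons of members on the opposite strand, GFI1B (TSC1) had 0 to 59 counts and ANGPTL7 and MTOR-AS1 (MTOR) 0 to 1, and those at SESN1, SESN3 and DEPTOR were not analysed here.

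RHEB (chr7:151466012-151520120, minus strand), the GTPase that activates mTORC1, and TSC1 rose with DDIT4 in all 4 comparisons with control, and of these RHEB and DDIT4 did so also with library sizes alone. In Caco-2 its libraries held 43.8, 41.6 and 50.3 CPM in control, 80.8, 91.6 and 93.5 CPM under CoCl2 and 62.4, 66.3 and 58.7 CPM under OD. In HT-29 they held 117, 122 and 112 CPM in control, 266, 287 and 284 CPM under CoCl2 and 164, 154 and 149.9 CPM under OD. In both lines OD lay between control and CoCl2 with no overlap. Under CoCl2 RHEB rose by 0.97 on the log2 scale in Caco-2 (SE 0.09, FDR 9.14e-10) and by 1.26 in HT-29 (SE 0.05, FDR 2.82e-18), or 1.963-fold and 2.39-fold. Under OD the rises were 1.38-fold (0.47, SE 0.09, FDR 1.19e-04) and 1.34-fold (0.42, SE 0.05, FDR 5.34e-08). The annotated pseudogenes RHEBP1, RHEBP2 and RHEBP3 had 0 to 3 counts per library.

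MTOR (chr1:11106535-11262556, minus strand), the kinase itself, fell under CoCl2 in Caco-2, from 88.0, 89.5 and 90.6 CPM to 54.1, 59.4 and 53.3 CPM (log2 fold change -0.69, SE 0.08, FDR 6.07e-08). OD libraries of Caco-2 held 80.3, 73.0 and 83.7 CPM, a value of -0.18 with an FDR of 0.0602. That value passed in limma-trend (FDR 0.0492), with library sizes alone (FDR 0.00146) and without OD replicate 3 (FDR 0.0457). In HT-29 MTOR fell under OD from 131, 128 and 126 CPM to 104.0, 103.9 and 104.6 CPM (log2 fold change -0.30, SE 0.05, FDR 2.52e-06), and CoCl2 libraries stood at 123.9, 121.0 and 120.4 CPM. The CoCl2 value was -0.07 (FDR 0.148, 95% interval -0.16 to 0.02), and it passed as a fall in limma-trend (-0.15, FDR 0.00334), with the 2 groups alone (-0.11, FDR 0.0376) and with library sizes alone (-0.71).

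EIF4EBP1 (chr8:38030534-38060365, plus strand), which encodes the translation repressor 4E-BP1, fell under CoCl2 and did not pass under OD in either line. In HT-29 it was at 30.3, 32.5 and 29.6 CPM in control, 20.4, 20.5 and 20.3 CPM under CoCl2 and 30.9, 34.04 and 34.4 CPM under OD. The CoCl2 group was clear of both others, which overlapped. The log2 fold change was -0.59 (SE 0.07, FDR 2.09e-08) for CoCl2 and 0.10 (95% interval -0.02 to 0.23, FDR 0.144) for OD. In Caco-2 the control libraries held 17.5, 19.2 and 22.6 CPM, the CoCl2 libraries 13.2, 11.8 and 11.5 CPM and the OD libraries 16.1, 19.6 and 25.5 CPM, with values of -0.71 (SE 0.15, FDR 1.70e-04) and 0.04 (95% interval -0.23 to 0.32, FDR 0.807). The pseudogene EIF4EBP1P1 had 0 to 2 counts.

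DEPTOR (chr8:119873717-120050918, plus strand) was the only member that fell past the FDR under both agents in both lines. With library sizes alone MTOR did so too, at -1.01 (CoCl2) and -0.33 (OD) in Caco-2 and -0.71 (CoCl2) and -0.43 (OD) in HT-29. HT-29 libraries held 57.1, 52.7 and 57.0 CPM in control, 8.14, 8.78 and 8.07 CPM under CoCl2 and 18.8, 25.7 and 21.5 CPM under OD. Caco-2 libraries held 16.2, 14.9 and 17.1 CPM in control, 6.17, 5.81 and 7.63 CPM under CoCl2 and 8.34, 9.49 and 8.47 CPM under OD. No treated library reached the lowest control library of its line. The fall under CoCl2 was 6.66-fold in HT-29 (log2 fold change -2.74, SE 0.10, FDR 9.93e-20) and 2.43-fold in Caco-2 (-1.28, SE 0.14, FDR 2.16e-08). Under OD the log2 fold changes were -1.34 (SE 0.08, FDR 1.71e-14) and -0.87 (SE 0.13, FDR 8.68e-06). CoCl2 was below OD by 1.39 log2 units in HT-29 (FDR 4.52e-12). In Caco-2 the difference between the agents was -0.41 (FDR 0.0237), and it did not pass in DESeq2 (FDR 0.0574) or without CoCl2 replicate 1 (FDR 0.0561), CoCl2 replicate 2 (FDR 0.105) or OD replicate 2 (FDR 0.101).

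**Figure D3:**
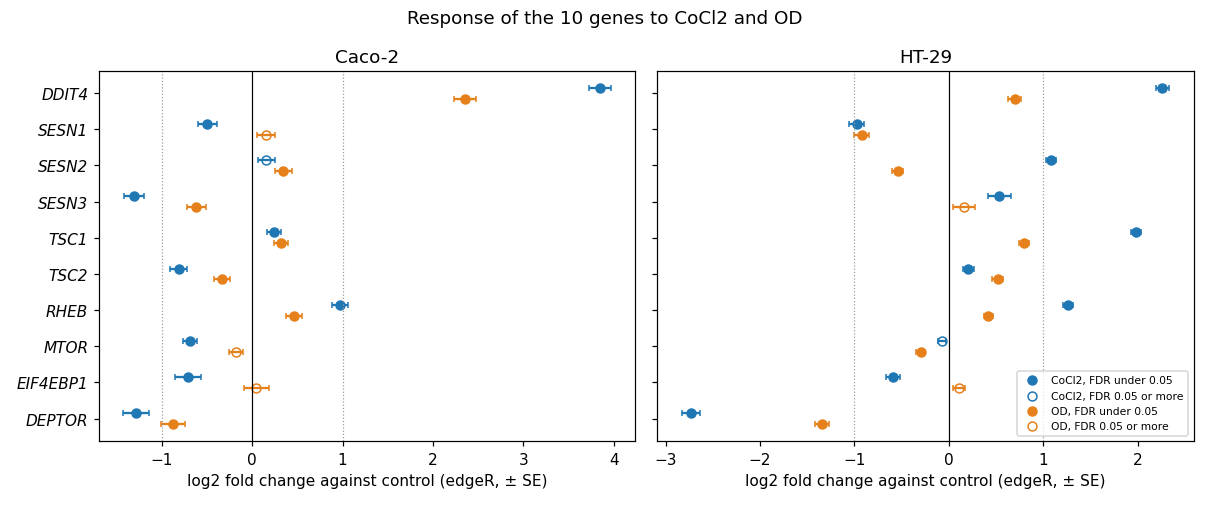
Log2 fold change against control (x axis, edgeR, whiskers ± SE) of the 10 genes (y axis) for CoCl2 (blue) and OD (orange) in Caco-2 (left) and HT-29 (right, with its own x range); filled points have an FDR under 0.05 and dotted lines mark a log2 fold change of -1 and 1. DDIT4, TSC1 and RHEB lie right of 0 and MTOR and DEPTOR left of 0 for both agents in both lines, not all of them filled. SESN1, SESN2, SESN3, TSC2 and EIF4EBP1 change side between the panels or agents.

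Counted together under TMM scaling, the share of the 10 genes called lay near that of all genes, and no test of the set was made. Calls needed an FDR under 0.05 together with a log2 fold change above 1 or below -1. Under CoCl2 in Caco-2, 3 members were called (DDIT4 higher, SESN3 and DEPTOR lower) where 23.4% of all tested genes were, 9.13% higher and 14.2% lower. Under OD in Caco-2 it was 1 (DDIT4, higher), against 11.7% of genes, 4.43% higher and 7.27% lower. Under CoCl2 in HT-29, 5 members were called (DDIT4, SESN2, TSC1 and RHEB higher, DEPTOR lower), against 41.3% of genes, 17.4% higher and 23.9% lower. Under OD in HT-29 it was 1 (DEPTOR, lower), against 17.1% of genes, 9.5% higher and 7.57% lower. The FDR threshold alone was passed in Caco-2 by 9 members under CoCl2 (3 higher, 6 lower), where 64.7% of genes passed it (31.6% higher, 33.1% lower). Under OD in Caco-2 it was passed by 7 (4 higher, 3 lower), against 50.4% of genes (25.7% higher, 24.7% lower). In HT-29, 9 members passed it under CoCl2 (6 higher, 3 lower), against 82.8% of genes (40.7% higher, 42.2% lower), and 8 under OD (4 higher, 4 lower), against 68.8% of genes (34.7% higher, 34% lower). With library sizes alone the members past the FDR divided into 2 higher and 6 lower, 2 and 4, 4 and 5, and 4 and 4, in the same order. Under CoCl2 in Caco-2, library sizes alone gave 6 called members (1 higher, 5 lower), where 4416 of 16034 genes were called. Under OD they gave 2 in each line, where 2144 of 16034 genes were called in Caco-2 and 2821 of 15812 in HT-29. Calls with library sizes alone under CoCl2 in HT-29 were again 5 but 2 higher and 3 lower, where 7545 of 15812 genes were called. SESN2 (0.45) and RHEB (0.63) were no longer called there, and SESN1 (-1.61) and EIF4EBP1 (-1.23) were. The median log2 fold change of the members was -0.59, 0.10, 0.37 and 0.13 in this order, against -0.03, -0.02, -0.03 and 0.01 for all genes.

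Between the agents, 1 member was called in Caco-2 (DDIT4, higher under CoCl2), where 11.7% of all genes were called, and 4 in HT-29 (DDIT4, SESN2 and TSC1 higher and DEPTOR lower under CoCl2), against 29.9% of genes. With library sizes alone the 4 in HT-29 became 2 higher and 2 lower, without TSC1 (0.68) and with EIF4EBP1 (-1.19). By the FDR alone, 8 members differed between the agents in Caco-2 and 9 in HT-29, where 49.6% and 77.7% of genes did. In Caco-2, CoCl2 was also lower than OD for SESN1 (log2 difference -0.65), SESN3 (-0.68), TSC2 (-0.48), MTOR (-0.51) and EIF4EBP1 (-0.75), with FDRs of 1.60e-05, 1.20e-05, 1.10e-04, 1.16e-05 and 1.38e-04. TSC1 did not pass there, at -0.08 (95% interval -0.23 to 0.07, FDR 0.414), but did with library sizes alone (-0.24, FDR 0.00788). RHEB was higher under CoCl2 in both lines, by 0.51 in Caco-2 and 0.84 in HT-29 (FDR 3.35e-05 and 2.54e-14). In HT-29, SESN3 (0.37, FDR 0.00518) and MTOR (0.23, FDR 1.11e-04) were also higher under CoCl2, both turning negative with library sizes alone (-0.12 and -0.27), and TSC2 was lower by 0.31 (FDR 1.23e-05). The doses were 300 µM and 5 µM, and this comparison shares its samples with those against control.

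The response to CoCl2 differed between the lines for 8 of the 10 genes by the interaction test over 18 libraries, where 49.8% of all genes passed the FDR. As a change in HT-29 less the change in Caco-2, TSC1 (log2 difference 1.63, SE 0.09, FDR 2.16e-16), SESN3 (1.73), TSC2 (0.91), SESN2 (0.82) and MTOR (0.50) were positive. DDIT4 (-1.69, SE 0.15, FDR 3.52e-11), DEPTOR (-1.56) and SESN1 (-0.59) were negative. Since the control level of DDIT4 was 15.4-fold higher in HT-29, its smaller fold change there went with a larger gain on the scale of all 18 libraries (from 122 to 545 CPM, against 8.02 to 115 CPM in Caco-2). RHEB (0.18, 95% interval -0.02 to 0.38, FDR 0.1497) and EIF4EBP1 (0.0044, 95% interval -0.31 to 0.32) did not pass. RHEB was the less settled of them, passing with DESeq2 (0.28, FDR 0.0184) and with RLE size factors (0.28, FDR 0.0191). Called among these were 4 members (SESN3, TSC1, DDIT4 and DEPTOR), where 21.6% of all genes were.

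For OD, 7 of the 10 responses differed between the lines, where 42.9% of all genes passed the FDR, and 2 were called (DDIT4 and SESN1), against 15.2% of genes. DDIT4 (-1.67, SE 0.16, FDR 1.41e-10), SESN1 (-1.10), SESN2 (-0.90) and DEPTOR (-0.49) had the lower values in HT-29. TSC2 (0.82, SE 0.10, FDR 4.17e-08), SESN3 (0.76) and TSC1 (0.46) had the higher ones. SESN2 therefore differed between the lines in opposite directions for CoCl2 and OD, 0.82 for CoCl2 and -0.90 for OD (FDR 6.07e-08 and 1.31e-08). Both tests use the same control libraries.

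Between the control groups, which had DMSO and no agent, the lines differed in all 10 genes at the FDR, which 79.1% of all genes passed. Of the 10 genes, 6 were called, against 45.8% of all genes. SESN3 was the most unequal, with 137 ± 10.3 CPM in Caco-2 control and 6.23 ± 0.44 CPM in HT-29 control (log2 difference -4.45, SE 0.12, FDR 4.58e-27). HT-29 held more DDIT4 (log2 difference 3.94), SESN2 (2.22), DEPTOR (1.88) and RHEB (1.46), and less TSC1 (-1.10). MTOR (0.61) and EIF4EBP1 (0.73) were moderately higher in HT-29. The differences of SESN1 (-0.23, FDR 0.0217) and TSC2 (0.17, FDR 0.0368) were small, and each missed the FDR when either Caco-2 control replicate 1 or replicate 3 was left out. Leaving out HT-29 control replicate 2 did the same for SESN1 (FDR 0.103), and HT-29 control replicate 1 for TSC2 (FDR 0.129). The TSC2 difference also missed it in DESeq2 (FDR 0.301) and with RLE size factors (FDR 0.240), and the SESN1 difference without the filter on low counts (FDR 0.0578). In RPKM, the highest member in Caco-2 control was EIF4EBP1 (22.9 ± 3.00 RPKM), followed by SESN3 (13.5 ± 1.00) and RHEB (13.1 ± 1.28), which overlapped. In HT-29 control it was DDIT4 (58.7 ± 8.72 RPKM), and EIF4EBP1 (36.1 ± 1.85), SESN2 (34.9 ± 2.34) and RHEB (34.1 ± 1.504) followed within their spread. This order between genes depends on the length per gene behind the RPKM, which was not checked against single transcripts.

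Of 9 genes for transcription factors known to act on the DDIT4 or sestrin genes, 8 rose past the FDR under CoCl2 in Caco-2, 5 under OD in Caco-2, 9 under CoCl2 in HT-29 and 7 under OD in HT-29, where 31.6%, 25.7%, 40.7% and 34.7% of all genes did. With library sizes alone the counts were 6, 5, 5 and 6 higher, with 1, 0, 2 and 2 lower. By the rule that adds the fold limit, 0, 1, 2 and 1 of the 9 were called in the same order. Of all genes, 23.4%, 11.7%, 41.3% and 17.1% were called. ATF4, the central factor of the integrated stress response, rose in all 4 comparisons, by 0.58 (CoCl2) and 0.84 (OD) on the log2 scale in Caco-2, against 0.91 (CoCl2) and 0.39 (OD) in HT-29. DDIT3, the stress-induced factor CHOP, rose most in HT-29 under CoCl2, from 74.1 to 393.5 CPM (log2 fold change 2.40, SE 0.07), and by 1.23 under OD. HIF1A rose by 1.40 under CoCl2 in HT-29 and had a value of 0.07 under OD in Caco-2 (FDR 0.609). FOXO1 rose by 1.19 under OD in Caco-2, and NFE2L2, which encodes NRF2, rose by 0.97 there but fell by 0.51 under OD in HT-29. These are mRNA levels. HIF is regulated mainly through protein stability and ATF4 through translation.

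Another 53 genes of the pathway were taken from a list by role, of which the Caco-2 fit held 51 and the HT-29 fit 49. Past the FDR, 20 were higher and 15 lower under CoCl2 in Caco-2, 18 and 11 under OD in Caco-2, 27 and 14 under CoCl2 in HT-29, and 20 and 12 under OD in HT-29. In both directions together, 35, 29, 41 and 32 passed, near the 64.7%, 50.4%, 82.8% and 68.8% of all genes that did. With library sizes alone the counts of higher and lower became 9 and 27, 12 and 19, 13 and 28, and 15 and 19, so the balance between higher and lower rests on the scaling. Called were 5, 2, 15 and 4 of them in the same order. Of all genes, 23.4%, 11.7%, 41.3% and 17.1% were called, a larger share in each comparison. The folliculin complex, which activates RRAGC and RRAGD as a GTPase-activating complex, rose in most comparisons: FLCN, FNIP1 and FNIP2 all rose under OD in Caco-2 and under both agents in HT-29, also with library sizes alone. Under CoCl2 in Caco-2, FNIP1 rose, FLCN turned from 0.28 to -0.04 with library sizes alone, and FNIP2 did not pass (-0.08, FDR 0.505) but fell with library sizes alone (-0.40, FDR 0.00314). FLCN stood at 10.5, 12.8 and 12.2 CPM in HT-29 control, 80.1, 85.3 and 77.4 CPM under CoCl2 and 49.0, 46.0 and 48.3 CPM under OD, with no overlap (log2 fold changes 2.76 and 2.00).

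The Rag GTPases bring mTORC1 to the lysosome. RRAGC rose in HT-29 from 9.73 ± 0.27 to 61.8 ± 3.26 CPM under CoCl2 (log2 fold change 2.66, SE 0.08) and 30.4 ± 3.50 CPM under OD (1.64, SE 0.08). RRAGD rose in Caco-2 from 17.3 ± 1.30 to 38.2 ± 4.28 CPM and 29.9 ± 0.98 CPM (1.15 and 0.79). RRAGC was not confined to HT-29: under CoCl2 in Caco-2, 3 of the 4 Rag GTPases passed the FDR as higher, RRAGC among them, and 1 as lower. With library sizes alone it was 1 higher and 1 lower. RRAGD was at 0 in 2 of 3 libraries of every HT-29 group and was not tested there. C12orf66 (-1.55) and ITFG2 (-1.10), subunits of KICSTOR, which anchors GATOR1 at the lysosome, fell under CoCl2 in HT-29, and ITFG2 fell there under OD too (-0.96). TBC1D7, the third subunit of the TSC complex, fell by 1.23 under CoCl2 and 0.48 under OD in Caco-2, in the same comparisons in which TSC2 fell. CASTOR2, related to the arginine sensor CASTOR1, rose by 2.94 under CoCl2 in HT-29. PRR5, an mTORC2 subunit, and BMT2 (SAMTOR), an S-adenosylmethionine sensor, rose by 1.34 and 1.09 under CoCl2 in Caco-2. PRKAA2, a catalytic subunit of AMPK, rose by 1.02 under OD in Caco-2. RRAGB fell by 0.66 under CoCl2 and 0.47 under OD in Caco-2, TFEB by 0.98 under CoCl2 in HT-29, and SLC38A9 and SEH1L by 0.76 and 0.64 under OD in HT-29.

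**Figure D4:**
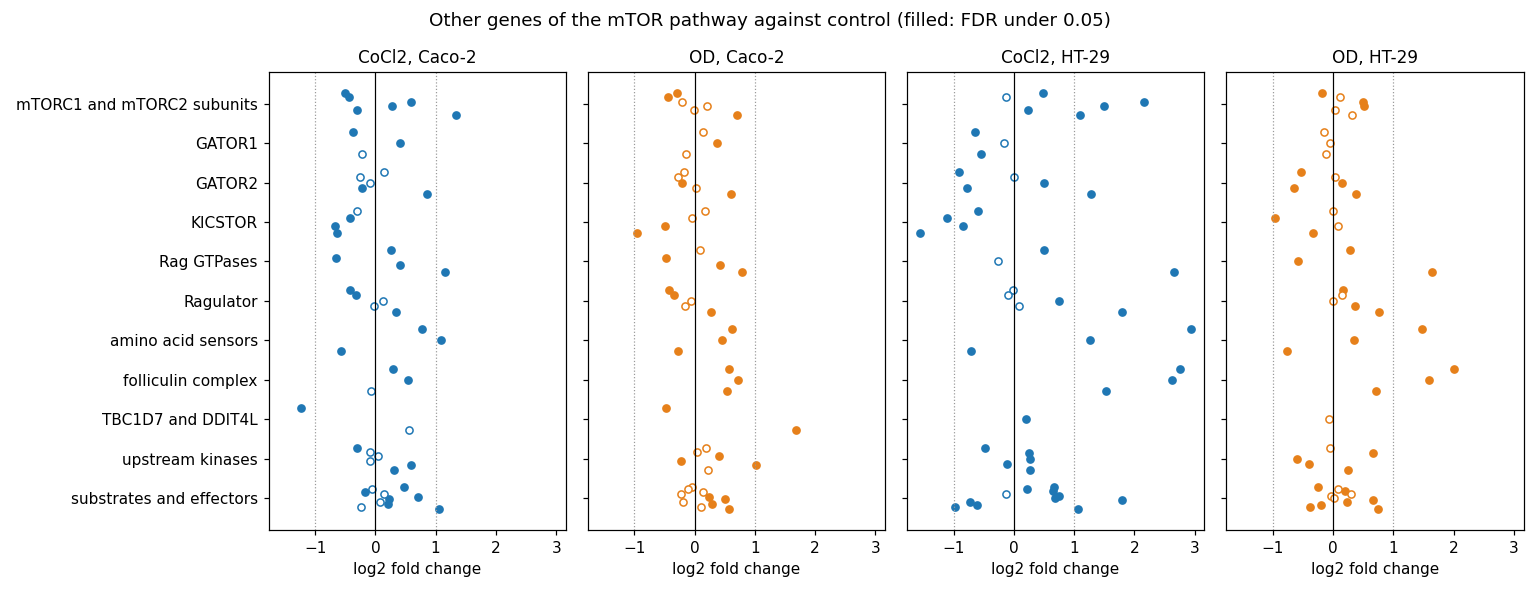
Log2 fold change against control (x axis, same range in 4 panels) of the tested genes of the 53-gene pathway list, 1 point per gene in rows by role; filled points have an FDR under 0.05 and dotted lines mark -1 and 1. The folliculin complex row lies at 1.53 to 2.76 under CoCl2 and 0.71 to 2.00 under OD in HT-29.

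Ranked by Pearson r of log2 CPM over 18 libraries, each line centred on its own mean, the genes most like DDIT4 among 13943 were ANKRD37 (r = 0.991), MAFF (0.990) and GDF15 (0.989). ANKRD37 is a known HIF target, and GDF15 is a stress-induced cytokine. MAFF followed the same order of group means as DDIT4 within each line, with 5.42, 85.6 and 30.6 CPM in Caco-2 (control, CoCl2, OD) and 29.4, 140 and 51.3 CPM in HT-29. For SESN2 the nearest genes were GLYR1 (r = 0.973), SRRT (0.966) and CUL1 (0.965). Among the members, DDIT4 and RHEB were the most alike (r = 0.910), and TSC1 and DEPTOR ran most opposite (r = -0.941). These values describe 18 libraries that fall into 6 groups and share treatments and lines, and they carry no test.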

How the data were processed

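The mRNA of 2 cell lines was sequenced with a stranded kit on 18 of the 36 samples; the small RNA files of the other samples were not used here. Read counts per gene, not normalised, were deposited by the authors and made with cutadapt 2.10, STAR 2.7.5b and FastQC 0.11.9 per the submitters' processing notes (GRCh38.p13, GENCODE release 34); whether counting used strand is not given in the sources used here. The authors also deposited log2 RPKM values with a pseudocount of 1 for 14230 genes, scaled within each line, which served only for levels in RPKM and for limma-trend.

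Counts were tested with edgeR 4.0.16 (R 4.3.3, quasi-likelihood test, TMM, filterByExpr, 1 coefficient per group), on 9 libraries per line and on 18 for differences between lines, with Benjamini-Hochberg adjustment over 16034 genes in Caco-2, 15812 in HT-29 and 17921 in both. CPM values are TMM-scaled within a line unless all 18 libraries are named. The 95% intervals come from the SE. Replicates differed by more than sampling noise, at 1.96 to 12.6 times the counting variance, so none was merged. Replicate 1 stood apart in both treated Caco-2 groups, at 8.65 and 10.8 under CoCl2 and 9.55 and 12.6 under OD. Replicates 2 and 3 were at 3.44 in each of these groups. In HT-29 control, replicate 3 stood apart at 6.15 and 5.07, against 1.97 between replicates 1 and 2. Same-numbered libraries did not deviate together. Alternatives were library size only, RLE size factors, no filter, DESeq2 1.42.0, limma 3.58.1, the 2 groups only, a replicate block, no fold limit and leaving out each library. The edgeR step was tested on simulated data.

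The members and lists were chosen with earlier results of these data known. From the pathway list, up to 3 genes with the highest and 3 with the lowest log2 fold change among those past the FDR with a mean count of at least 100 were named in each comparison with control; FNIP2 was named as part of its complex after its values were seen, and 1 gene that the rule would name is not reported here. Coordinates are from GENCODE release 44.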

Additional observations from a re-analysis of the deposited data

Results flagged for a closer look

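The response to treatment differed between the lines for most of the 10 genes, by the edgeR interaction test over 18 libraries (change in HT-29 less change in Caco-2, log2 scale, FDR under 0.05). For CoCl2 the difference was -1.69 for DDIT4, -0.59 for SESN1, 0.82 for SESN2, 1.73 for SESN3, 1.63 for TSC1, 0.91 for TSC2, 0.50 for MTOR and -1.56 for DEPTOR. For OD it was -1.67 for DDIT4, -1.10 for SESN1, -0.90 for SESN2, 0.76 for SESN3, 0.46 for TSC1, 0.82 for TSC2 and -0.49 for DEPTOR. Of these, SESN3 and TSC2 fell in Caco-2 under CoCl2 and rose in HT-29, though with library sizes alone SESN3 no longer passed in HT-29 (-0.10, FDR 0.443) and TSC2 fell there (-0.43, FDR 1.17e-07). Under OD SESN2 rose in Caco-2 and fell in HT-29 while TSC2 did the opposite. The SESN2 rise in Caco-2 did not pass with library sizes alone (0.19, FDR 0.107). Differentiation of Caco-2 and the growth medium cannot be told apart from the line.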

How the results depend on the processing

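Without the fold limit, the members called became 9, 7 and 8 in Caco-2 (CoCl2, OD, and CoCl2 against OD), 9, 8 and 9 in HT-29, 8 and 7 for the line differences (CoCl2, OD) and 10 between the controls, and the pathway genes called became 35 (CoCl2) and 29 (OD) for Caco-2, with 41 (CoCl2) and 32 (OD) for HT-29. With library sizes alone, 6 members were called for CoCl2 in Caco-2, 2 for OD in Caco-2 and 2 for OD in HT-29, and 2 pathway genes for CoCl2 in Caco-2. Of all genes, 4416 (CoCl2) and 2144 (OD) of 16034 were then called in Caco-2, with 7545 (CoCl2) and 2821 (OD) of 15812 in HT-29. The count of 5 for CoCl2 in HT-29 hid an exchange of members, from 4 higher and 1 lower to 2 higher and 3 lower. The pathway genes called in that comparison went from 15 (13 higher, 2 lower) to 20 (7 higher, 13 lower) with library sizes alone. Limma-trend on the deposited log2 values called 1 pathway gene (CoCl2) and 0 (OD) in Caco-2, and 1 for OD with a pseudocount of 0.1. The count of 0 came from the fold limit on that scale, since 31 of 51 had an unadjusted p under 0.05 and 29 an FDR under 0.05, and edgeR called 2. Leaving out 1 library gave 1 to 3 pathway genes for OD in Caco-2, with 1 without control replicate 3, OD replicate 2 or OD replicate 3.

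Library sizes alone reversed SESN2 (-0.16) and TSC1 (-0.076) for CoCl2 and EIF4EBP1 (-0.10) in Caco-2 under OD. In HT-29 they reversed SESN3 (-0.10) and TSC2 (-0.43) for CoCl2, EIF4EBP1 (-0.031) for OD, and SESN3 (-0.12) and MTOR (-0.27) for CoCl2 against OD. The line differences of RHEB (-0.027) and EIF4EBP1 (-0.20) for CoCl2 also reversed. EIF4EBP1, near 0 in these comparisons, further reversed for OD in Caco-2 with limma-trend (-0.0072) and a pseudocount of 0.1 (-0.0082), and for the CoCl2 line difference without the filter (-0.014). Leaving out 1 library, its value ran from -0.14 to 0.19 for OD in Caco-2, -0.10 to 0.088 for the CoCl2 line difference and -0.11 to 0.22 for the OD line difference. Across the alternatives other than leaving out a library, 596 of the member values kept direction and side of the threshold, 13 reversed, 11 newly passed and 10 no longer passed. The causes were not tested. Library sizes alone also moved the share of calls that were higher from 39.1% to 19.7% (CoCl2) and from 37.9% to 23.3% (OD) in Caco-2, with 42.1% to 17.2% (CoCl2) and 55.7% to 43.4% (OD) in HT-29. With limma-trend it was 53.2% (CoCl2) and 64.8% (OD) in Caco-2.

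Same-numbered libraries did not pair (r of -0.239 to 0.248 in Caco-2 and -0.116 to 0.0745 in HT-29 over 9 pairs each). A replicate block left 103 of 103 results on the same side, with 3 members called for CoCl2 in Caco-2 and 5 in HT-29. With 3 replicates per group, small differences such as those of MTOR for OD in Caco-2 and RHEB between the lines lay near the threshold, and counts as low as 74 per library for DEPTOR limit its precision in Caco-2.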
